A study of Mus musculus with 12 samples.

Results

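The effect of transfecting an empty vector was examined in Hdh109/109 cells, an immortalised line from the striatum of a homozygous knock-in mouse whose huntingtin gene carries 109 CAG repeats. Huntingtin with a long CAG repeat causes Huntington's disease, and lines of this kind serve as cell models of it. The comparison set 2 expression arrays of empty vector cells against 2 arrays of untransfected cells, chosen by their titles out of the 12 Illumina bead arrays of the series. The other 8 arrays hold Hdh109/109 cells transfected with DNRest and, in the same 3 states, Hdh7/7 cells, a matching immortalised line with 7 CAG repeats. DNRest is a name used for a truncated REST that blocks the full-length protein, a silencer of neuronal genes. Of the 44505 probes, 15224 were detected on at least 2 of the 12 arrays and tested, and they represent 8487 named genes.

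The vector, the transfection reagent and the time between transfection and RNA extraction are not stated in the labels, and the treatment field calls all cells untreated. The untransfected cells are not described as mock-transfected, so plasmid DNA, reagent and handling cannot be told apart. There is 1 line per genotype, so what separates the lines beside CAG length cannot be told apart from genotype. The series calls its RNA samples biological replicates, but no label says that they came from separate cultures. P-values therefore reflect array-to-array spread only, part or all of which may be technical. In bulk RNA, a change in the share of cells that respond and a change per cell cannot be told apart.

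Within the comparison, 3 of the 4 arrays carry a source name with the other genotype, although their titles and genotype field say Hdh109/109. Each of the 4 arrays correlated at 0.967 or more with every other Hdh109/109 array and at 0.916 or less with every Hdh7/7 array over the tested probes. Untransfected replicate 2 had a high background, with a median bead signal of 156, against 81.9 on both empty vector arrays and 82.7 on untransfected replicate 1. It detected 11968 probes, while the 2 empty vector arrays detected 13237 and 14370 and untransfected replicate 1 detected 13827. The Htt probe was undetected on every Hdh109/109 array and gave log2 signals of 5.60 and 5.25 with empty vector, against 5.18 and 5.04 in untransfected cells (adjusted p = 0.397, limma). Rest, undetected on all 4 arrays, was not tested.

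Markers of mature striatal neurons were mostly undetected, with 6 to 7 of the 18 with a probe detected on each array. Of 18 such markers with a probe, 11 were undetected on all 4 arrays, among them the dopamine receptors Drd1 and Drd2, their signalling partner Ppp1r1b and the GABA-synthesising enzymes Gad1 and Gad2. The progenitor filament Nes was detected (log2 fold change -0.18, adjusted p = 0.66), while the progenitor factors Sox2 and Pax6 were not. Probes for 12 microglia and macrophage markers and 6 lymphocyte markers were undetected on all 4 arrays without exception.

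As background, cells that sense foreign nucleic acid or receive an interferon signal switch on a large set of interferon-stimulated genes. Cytosolic sensors such as RIG-I, MDA5 and cGAS act through adaptors on the factors IRF3 and IRF7, which induce type I interferon. Secreted interferon then acts through its receptors, JAK kinases and STAT and IRF factors on genes for antiviral effectors, GTPases, chemokines and antigen presentation. Many of these genes carry an interferon-stimulated response element (ISRE) near their start.

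With empty vector, interferon-stimulated genes were the most strongly raised genes in Hdh109/109 cells. The antiviral radical-SAM enzyme Rsad2 (viperin) was at least 51-fold higher and the chemokine Cxcl10 was 32.6-fold higher than in untransfected cells. The antiviral protein Ifit3, detected on 1 of the 2 untransfected arrays, was 30.2-fold higher by its brighter probe. Fewer genes fell, and by less: the prolactin family genes Prl2c2, Prl2c3 and Prl2c4, the secreted signal Wnt2, and Id1, Id2 and Id3, inhibitors of bHLH factors, were among them. In all, 206 genes were higher (2.43% of those tested) and 79 were lower (0.931%) at an adjusted p under 0.05. By probe, 298 were higher (1.96%) and 146 lower (0.959%), out of 2875 with an unadjusted p under 0.05. Of the genes higher by at least 2-fold, 115 in all, 61 belonged to 7 lists of interferon and immune genes. These lists held 105 of the 8487 genes tested. By at least 2-fold, 26 genes were lower.

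These counts rest on few arrays. Leaving out 1 of the 4 arrays at a time gave 147 to 468 higher probes and 22 to 622 lower ones. The extremes came without empty vector replicate 2 (147 higher, 25 lower), without empty vector replicate 1 (468 higher, 622 lower) and without untransfected replicate 1 (165 higher, 22 lower). Without untransfected replicate 2, the array of high background, 160 probes were higher and 34 lower. Of the called probes, 67.1% were higher, and the share was 90.6% with median scaling, which shifted the median of all genes to 0.15 on the log2 scale against 0.01, and 55.5% without background correction.

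The 7 interferon and immune lists name 179 genes, of which 105 were tested, 66 rose and none fell in the limma fit. Of the 66, 23 were undetected on both untransfected arrays, and 0 were undetected on both empty vector arrays. Since genes could pass the detection filter through their empty vector signal alone, the count was repeated among genes detected on all 4 arrays. Of 68 list members, 43 then rose. Over all probes, that filter gave 271 higher and 227 lower ones, and the matching share of all genes was not computed. Leaving out each of the 4 arrays in turn left 50 to 62 of the 105 higher. The lowest count came without untransfected replicate 2. The plot of gene list changes shows that these 7 lists had medians of 0.50 or more over their tested members, and no other list exceeded 0.46. Over all genes with a probe the lists were not fully apart. There the chemokine and cytokine median was 0.36, below the 0.39 of NF-kappaB targets, and the remaining interferon and immune lists had 0.47 or more.

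**Figure D1:**
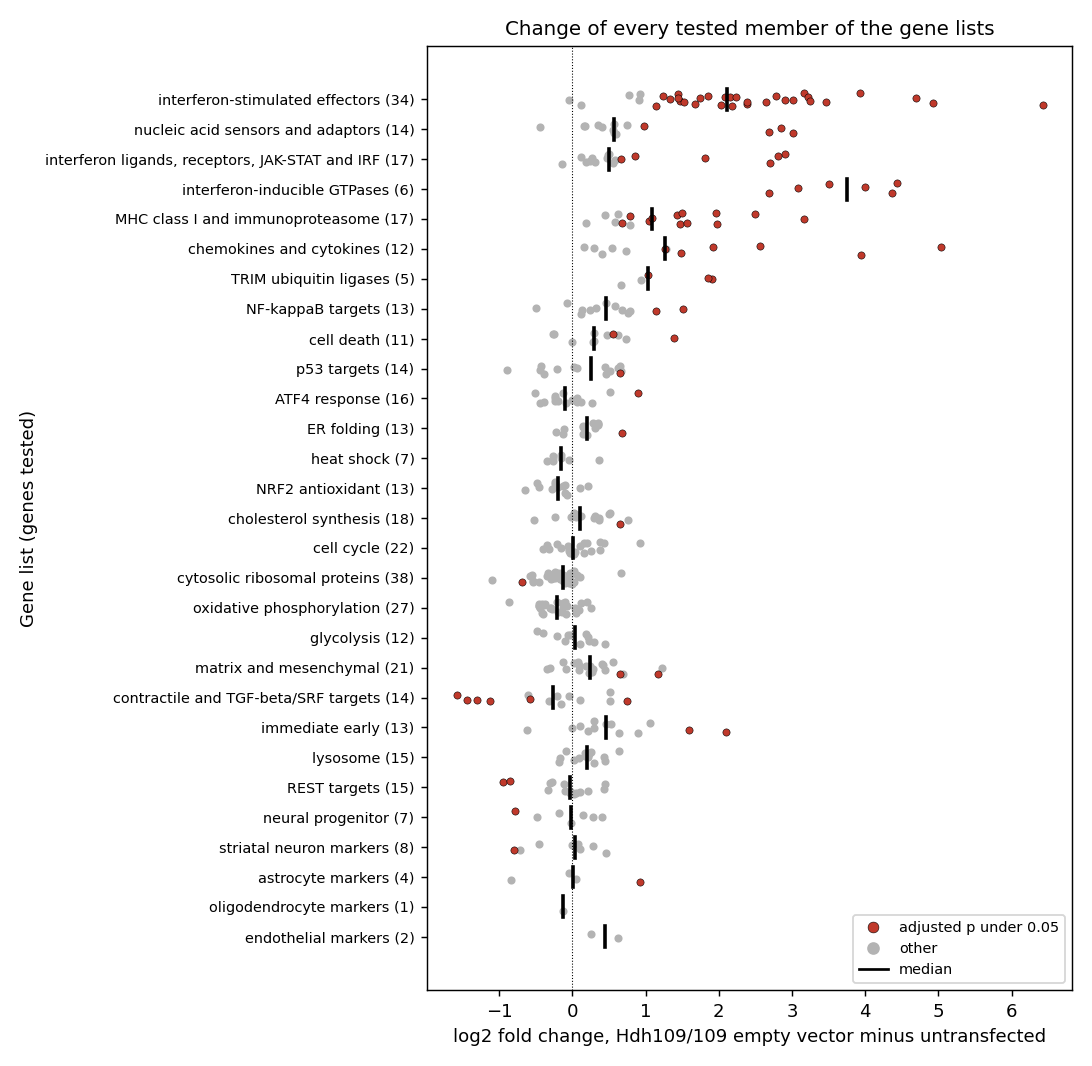
log2 fold change (empty vector minus untransfected, Hdh109/109 cells; x axis) of every tested member of each gene list (y axis, number tested in brackets). Red points passed an adjusted p under 0.05 and bars are list medians; the median was 2.12 for interferon-stimulated effectors and 3.75 for interferon-inducible GTPases, against 0.01 over all 8487 genes.

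Antiviral effectors formed the largest of these lists. Of 59 genes listed, 46 had a probe and 34 were tested; 29 of the 34 rose and none fell. The median log2 fold change was 2.12 over the tested members, 2.06 with members undetected in untransfected cells set at their lower bound, and 1.50 over all 46 with a probe, against 0.01 over all genes tested. Rsad2 had log2 signals of 11.45 and 11.84 with empty vector, against 5.59 and 4.83 in untransfected cells, where it was undetected on both arrays. It was thus at least 51-fold higher (adjusted p = 1.81e-06, limma), the bound being set by the lowest detected signal of those arrays. Ifit3, which binds viral RNA together with other IFIT proteins, had 10.21 and 10.95 with empty vector, against 5.93 and 5.40 untransfected (log2 fold change 4.92, SE 0.30, adjusted p = 1.44e-05). It was detected on 1 of the 2 untransfected arrays, so its fold change rests partly on background signal. Its other probe had a log2 fold change of 3.91. In both genes the arrays of the 2 states lay far apart.

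The GTPase Mx2, which blocks virus replication, was at 9.09 and 9.61 with empty vector and undetected at 4.69 and 4.62 without transfection, at least 10.4-fold higher. Cmpk2, a nucleotide kinase of mitochondria, rose at least 8.79-fold and lies beside Rsad2 in the genome. Parp14, an ADP-ribosyltransferase, rose at least 6.09-fold, although its probes differed in size, with log2 fold changes of 1.82 and 3.46. Apol9b, an apolipoprotein L family gene, rose at least 6.06-fold, and its near-identical relative Apol9a had a log2 fold change of 3.22. The tethering factor Bst2, which holds budding virus at the cell surface, had 12.74 and 12.64 with empty vector and 9.74 and 10.08 without (log2 fold change 2.78, SE 0.19). Other members that rose include Oasl1 (at least 3.21-fold), the RNA-activated kinase Eif2ak2 (1.85 on the log2 scale), Ifit2 (2.03) and the RNA editing enzyme Adar (1.14).

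Some effectors did not pass. Ifitm2 stood at 12.73 and 11.97 with empty vector and at 12.44 and 12.35 untransfected (log2 fold change -0.05, adjusted p = 0.935), while its relatives Ifitm1 and Ifitm3 rose by 1.34 and 1.74. The exonuclease Trex1, which degrades cytosolic DNA, had a log2 fold change of 0.91 (adjusted p = 0.0517). Probes for Ifit1 and Mx1 were undetected on all 4 arrays: Mx1 gave 4.91 and 5.12 with empty vector, against 4.64 and 4.59 untransfected. Uba7, the activating enzyme of the ubiquitin-like modifier ISG15, belongs to none of these lists in the table used and had 9.57 and 10.21 with empty vector and 6.32 and 6.29 untransfected (log2 fold change 3.58, SE 0.29).

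**Figure D2:**
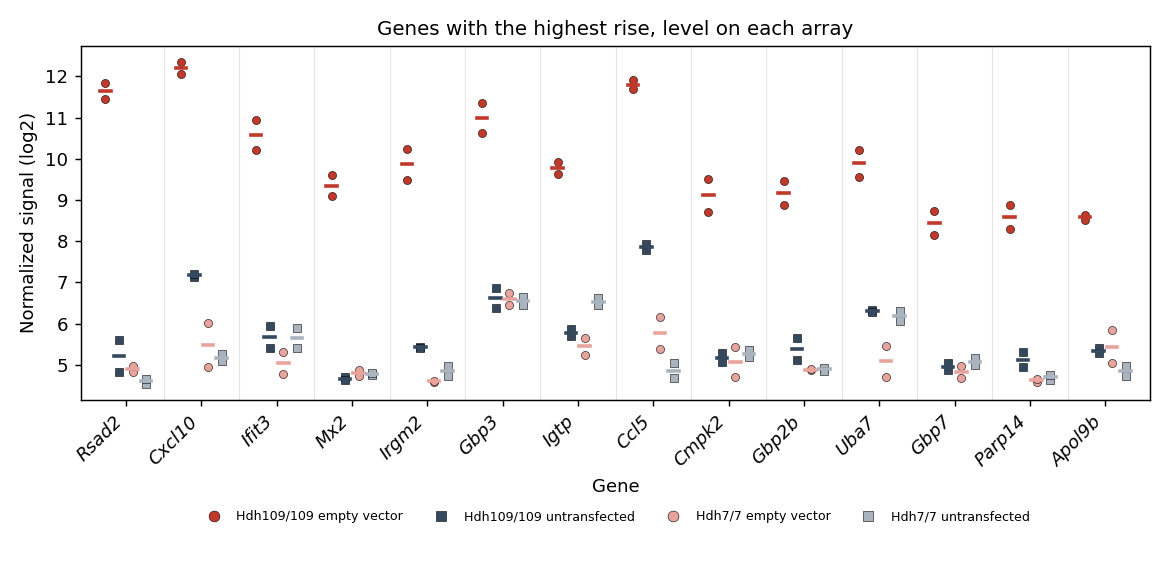
Normalized log2 signal (y axis) of the 14 genes with the highest change in Hdh109/109 cells (x axis), 2 arrays per group with the mean as a bar, for both lines. In Hdh109/109 cells every empty vector array lies above both untransfected arrays, which the choice of these genes required (26% of all genes tested meet it); Rsad2 stands at 11.45 and 11.84 with empty vector and at 5.59 and 4.83 without.

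All 6 tested interferon-inducible GTPases rose. These proteins, the guanylate-binding proteins and the immunity-related GTPases, attack the vacuoles of intracellular pathogens. Of 14 with a probe, 7 were undetected on all 4 arrays, and the median log2 fold change over the 14 was 0.53, against 3.75 over the tested 6 and 3.32 with bounds. Irgm2 was at 9.49 and 10.25 with empty vector, against 5.43 and 5.41 untransfected, at least 14.9-fold higher (adjusted p = 7.39e-06). Gbp3 had 10.62 and 11.36 with empty vector, against 6.38 and 6.87 untransfected (log2 fold change 4.36, SE 0.24, adjusted p = 1.09e-05). Igtp, with 9.64 and 9.93 against 5.70 and 5.86 untransfected, was at least 14-fold higher, and Gbp7 at least 5.52-fold. Gbp2b, a guanylate-binding protein outside the list, rose at least 9.19-fold. The GBP genes are close paralogs, and probes for one may take up signal of another.

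The promoters of the most strongly raised genes were examined for the core of the ISRE, written GAAANNGAAA, and for the gamma-activated site (GAS), TTCNNNGAA, to which STAT dimers bind. Both strands of the 250 bases before each RefSeq start (GRCm38.p6) were searched, and overlapping matches were kept. Of the 14 highest genes, 11 had an entry, 9 of them with an ISRE core and 3 with a GAS; Mx2, Ccl5 and Parp14 are named only. The promoters of Rsad2, Cxcl10, Ifit3, Irgm2 and Igtp, all with an ISRE core, are shown because these genes are among the largest rises. Gbp3, which rose more than Igtp, is not shown, and its entries include a start without a core. Cmpk2 and Uba7 had an entry but no core. The sequences run 5′ to 3′ on the gene's own strand and end 1 base before the start, with the ISRE core, on either strand, in capitals.
Rsad2 promoter: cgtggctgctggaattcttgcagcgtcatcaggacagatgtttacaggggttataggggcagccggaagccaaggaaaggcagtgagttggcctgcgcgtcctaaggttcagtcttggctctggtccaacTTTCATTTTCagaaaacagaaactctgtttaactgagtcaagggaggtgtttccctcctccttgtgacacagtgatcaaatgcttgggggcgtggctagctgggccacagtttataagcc
Cxcl10 promoter: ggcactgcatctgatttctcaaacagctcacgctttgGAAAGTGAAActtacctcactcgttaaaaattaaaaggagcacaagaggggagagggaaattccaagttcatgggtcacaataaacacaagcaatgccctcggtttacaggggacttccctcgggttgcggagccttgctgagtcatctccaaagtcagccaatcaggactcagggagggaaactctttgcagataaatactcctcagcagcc
Ifit3 promoter: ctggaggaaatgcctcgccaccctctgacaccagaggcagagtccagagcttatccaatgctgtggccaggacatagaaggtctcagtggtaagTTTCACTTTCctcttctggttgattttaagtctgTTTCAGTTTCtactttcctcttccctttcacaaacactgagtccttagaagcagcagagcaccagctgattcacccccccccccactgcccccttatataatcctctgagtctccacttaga
Irgm2 promoter: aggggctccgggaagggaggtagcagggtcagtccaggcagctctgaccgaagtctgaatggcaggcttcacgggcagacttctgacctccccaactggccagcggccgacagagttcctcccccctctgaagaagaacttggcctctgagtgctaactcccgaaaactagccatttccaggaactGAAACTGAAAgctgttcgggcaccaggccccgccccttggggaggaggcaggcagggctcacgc
Igtp promoter: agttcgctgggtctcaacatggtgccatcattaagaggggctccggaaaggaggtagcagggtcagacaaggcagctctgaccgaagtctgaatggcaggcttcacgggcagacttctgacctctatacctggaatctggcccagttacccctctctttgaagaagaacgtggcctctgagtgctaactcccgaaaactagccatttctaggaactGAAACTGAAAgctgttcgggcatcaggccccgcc
They lie at chr12:26456453-26456702 on the minus strand, chr5:92348890-92349139 on the minus strand, and, on the plus strand, chr19:34583279-34583528, chr11:58214727-58214976 and chr11:58199306-58199555.

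The ISRE core began 120 bases before the start in Rsad2, 213 in Cxcl10, 156 and 122 in Ifit3, 64 in Irgm2 and 34 in Igtp. Irgm2 and Igtp, neighbours on chromosome 11, share the same ISRE core letters, GAAACTGAAA, each with a GAS 11 bases further upstream. An ISRE core lay before the start of 20 of the 55 raised interferon and immune genes with an entry (36.4%) and of 15 of the 106 other raised genes (14.2%). It was found for 1 of 61 lowered genes (1.64%), for 2.98% of all tested genes and for 3.46% of all genes in the table. The GAS was found for 16.4% of the raised interferon and immune genes, 7.55% of the other raised genes, 6.56% of lowered genes and 7.13% of all tested genes. A match describes the letters of these windows and does not show binding.

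Sensors of foreign nucleic acid rose in part. Of 14 tested, 4 rose and none fell, and their median log2 fold change was 0.57 (0.47 with bounds). Ddx58 (RIG-I), a sensor of viral RNA, was at 8.97 and 10.00 with empty vector, against 6.49 and 6.43 untransfected (log2 fold change 3.02, SE 0.50, adjusted p = 0.0108). Ifih1 (MDA5), which senses long double-stranded RNA, had 7.70 and 8.45 with empty vector and was undetected at 5.30 and 5.14 without, at least 4.30-fold higher. Their regulator Dhx58 (LGP2) rose at least 3.49-fold. Cgas, the sensor of cytosolic DNA, was already detected in untransfected cells at 10.85 and 10.76 and had 11.74 and 11.84 with empty vector (1.97-fold, adjusted p = 0.00665, with log2 fold changes of 0.46 and 0.98 over its probes). Its adaptor Sting1 had 6.33 and 6.21 with empty vector and 5.68 and 5.74 without, and did not pass (adjusted p = 0.251). The RNA sensor adaptor Mavs had a log2 fold change of 0.17 (adjusted p = 0.501) and the kinase Tbk1 0.57 (adjusted p = 0.131). Tlr3, Tlr7 and Tlr9, endosomal receptors of nucleic acid, were not detected often enough to be tested.

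None of the 4 interferon genes listed with a probe was detected. The probe for interferon beta, Ifnb1, gave background signals of 4.84 and 5.13 with empty vector, against 4.98 and 5.16 untransfected, and Ifna2, Ifna4 and Ifng were likewise undetected on all 4 arrays. Of the receptors, Ifnar1 was undetected on all 4 arrays and Ifnar2 had a log2 fold change of 0.49 (adjusted p = 0.427), while Ifngr2 rose by 0.67 (adjusted p = 0.0233). The kinases Jak1, Jak2 and Tyk2 did not pass, with log2 fold changes of -0.14, 0.12 and 0.31. Downstream, Stat2 was at 7.88 and 8.22 with empty vector and undetected at 5.49 and 4.81 without, at least 4.22-fold higher (adjusted p = 0.000251). Irf9, its partner in the factor that binds the ISRE, had 9.82 and 10.20 with empty vector, against 7.04 and 7.35 untransfected, a 7.02-fold rise. Irf7, the amplifier of type I interferon, rose at least 4.73-fold, and Irf1 rose by 1.81 on the log2 scale. Irf3, which is activated by phosphorylation, had a log2 fold change of 0.27 (adjusted p = 0.257). The feedback inhibitor Socs1 rose by 0.86 (adjusted p = 0.0214), while Socs3 had 0.47 (adjusted p = 0.0874). In this list of 17 tested genes, 6 rose and none fell, with a median of 0.50.

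Genes of antigen presentation by MHC class I also rose, 12 of 17 tested and none lower, with a median log2 fold change of 1.09 and of 0.79 with bounds. Among them were the immunoproteasome subunits, which cut peptides for presentation. Psmb8 had 9.77 and 9.42 with empty vector, against 6.46 and 6.39 untransfected (log2 fold change 3.17, SE 0.24), though its probes ranged from 1.44 to 3.26. Psmb9 was at least 3.81-fold higher and Psmb10 was 2.83-fold higher. The class I heavy chain H2-K1 had 10.06 and 10.15 with empty vector and 8.04 and 8.24 without, a 3.90-fold rise by the brighter probe and 0.97 on the log2 scale by the other, and the peptide transporter subunit Tap2 rose 3.93-fold. The light chain B2m, bright in both states, rose 1.60-fold (adjusted p = 0.0214). H2-D1 (0.45, adjusted p = 0.154) and Tap1 (0.63, adjusted p = 0.153) did not pass. Heavy chain genes are near-identical, so their probes may not separate them. All 6 MHC class II probes, including the class II master regulator Ciita, were undetected on all 4 arrays.

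Of 12 tested chemokines and cytokines, 6 rose and none fell, with a median of 1.27 on the log2 scale, 0.93 with bounds and 0.36 over all 22 with a probe. Cxcl10, which attracts activated T cells, was detected on all 4 arrays, at 12.05 and 12.35 with empty vector, against 7.13 and 7.21 untransfected (log2 fold change 5.03, SE 0.29, adjusted p = 1.19e-05). Ccl5, a chemokine for T cells and monocytes, was at 11.91 and 11.69 with empty vector and at 7.78 and 7.94 without (log2 fold change 3.94, SE 0.23, adjusted p = 1.19e-05). The monocyte chemokines Ccl2 and Ccl7 rose 5.91-fold and 3.79-fold, Il6 at least 1.34-fold, and Cxcl16 2.39-fold. Cxcl9 and Cxcl11, which share the receptor of Cxcl10, and Tnf and Il1b were undetected on all 4 arrays. Among TRIM ubiquitin ligases, 3 of 5 tested rose: Trim25, which ubiquitinates RIG-I, by 1.85, Trim26 by 1.04 and Trim12a at least 1.60-fold. Beside these rises, the summed linear signal of the 12 microglia and macrophage probes was 336 to 351 with empty vector and 337 to 354 untransfected, with all of them undetected, and that of 6 lymphocyte probes was 178 to 187 with empty vector and 178 to 196 untransfected. The 10 endothelial probes, 8 of them undetected on all 4 arrays, summed to 485 to 501 with empty vector and 424 to 437 untransfected. Their part in the result was not tested.

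**Figure D3:**
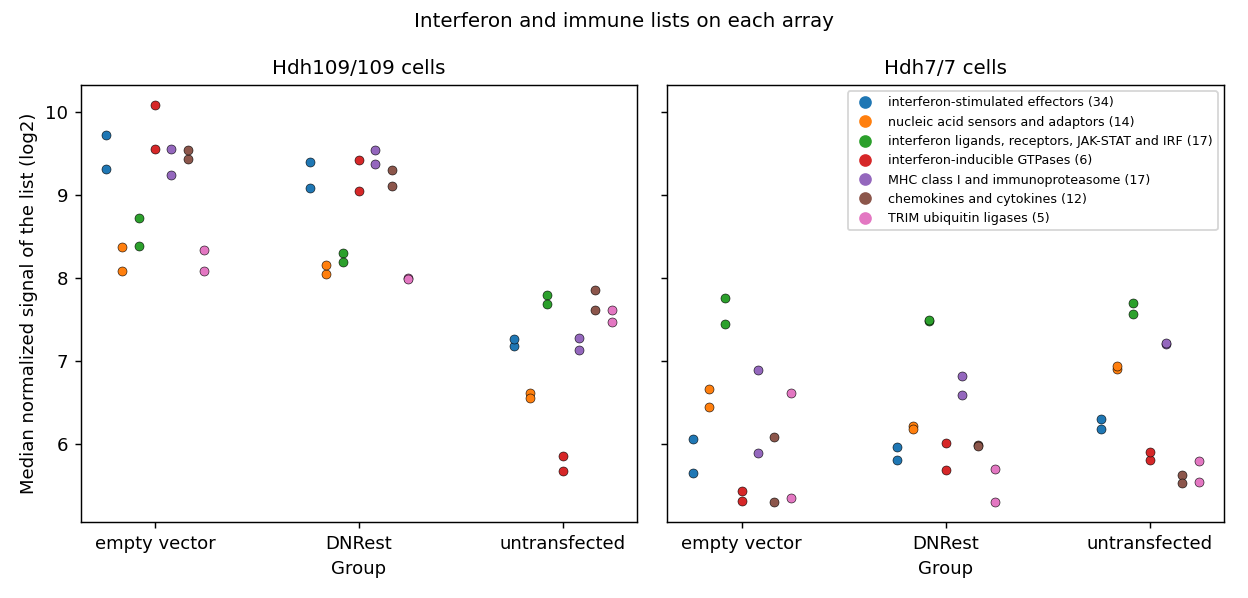
Median normalized log2 signal over the tested members (y axis) of the 7 interferon and immune lists on each of the 12 arrays, by group (x axis) and line; each point is 1 array. The arrays of both transfected states lie above the untransfected ones in Hdh109/109 cells, where the effector list is at 9.31 and 9.72 with empty vector, 9.08 and 9.40 with DNRest and 7.18 and 7.26 untransfected.

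DNRest cells of the same line, which were also transfected, are set beside the empty vector cells as values. The median log2 signal of the effectors was 9.31 and 9.72 with empty vector, 9.08 and 9.40 with DNRest and 7.18 and 7.26 in untransfected cells. Against the same untransfected arrays, which both comparisons share, 27 of the 34 tested effectors rose with DNRest, and none fell, with a median of 1.82; of all genes tested, 2.76% rose and 2.33% fell with DNRest. Rsad2 stood at 10.92 and 11.38 with DNRest, and Cxcl10 at 11.62 and 11.83. Of REST target genes, 10 of 15 tested rose with DNRest (median 1.30). With empty vector 0 rose and 2 fell, the growth cone gene Stmn2 and the lipid enzyme Smpd3, with a median of -0.03. Targets could pass the detection filter through their DNRest signal alone, which favours the DNRest count. Of 29 with a probe, 18 were undetected on all 4 empty vector and untransfected arrays, and the empty vector median over the 29 was -0.06.

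The 2 empty vector arrays were not alike in the size of the response. Of the 66 raised interferon and immune genes, 50 were higher on empty vector replicate 2 than on replicate 1 (75.8%), by a median of 0.16, while 51.8% of all tested genes were, with a median of 0.02. Between the 2 untransfected arrays the same 66 genes had a median difference of 0.01. The MHC class I and immunoproteasome list went the other way, with a median log2 signal of 9.56 on empty vector replicate 1 and 9.24 on replicate 2. Medians of the other interferon and immune lists were higher on replicate 2.

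Outside the 7 interferon and immune lists 140 genes rose, against 66 inside them. The median change of these raised genes was 0.91 on the log2 scale outside and 2.17 inside the lists. Those outside include the guanylate-binding protein gene Gbp2b, so the lists do not separate interferon genes from all others. Of 13 tested NF-kappaB targets 2 rose, both adhesion molecules: Vcam1, at 9.06 and 9.07 with empty vector and 7.43 and 7.66 untransfected (2.85-fold), and Icam1 (2.21-fold). The remaining tested members did not pass, among them the inhibitors Nfkbia (0.33, adjusted p = 0.385) and Tnfaip3 (0.68, adjusted p = 0.0721). Of the 13, 11 had a positive change, with a list median of 0.46, against 4358 of all 8487 genes tested. Immediate early genes, which respond within minutes to growth signals, included 2 risers among 13 tested. Fos was at 9.17 and 8.62 with empty vector, against 6.81 and 6.79 untransfected (log2 fold change 2.10, SE 0.21, adjusted p = 0.000344). Egr1 had 13.16 and 13.27 with empty vector and 11.58 and 11.67 without (3.01-fold). Jun (0.11) and Fosl1 (0.21) did not pass.

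Cell death genes rose for 2 of 11 tested: the inflammatory caspase Casp4 at least 1.10-fold and the necroptosis kinase Ripk3 1.47-fold. In each of 4 other lists of stress or sterol genes 1 member rose, by 0.65 to 0.90 on the log2 scale. These were Plk2 of 14 p53 targets, Atf3 of 16 ATF4 response genes, Xbp1 of 13 ER folding genes and Msmo1 of 18 cholesterol synthesis genes. Of all genes tested 2.43% rose, so 1 call says little about a list of this size. The p53 targets Cdkn1a (0.62, adjusted p = 0.0939) and Mdm2 (0.66, adjusted p = 0.0591) did not pass. None of 22 cell cycle genes (median 0.02), 7 heat shock genes (-0.16), 13 NRF2 antioxidant genes (-0.19), 27 oxidative phosphorylation genes (-0.21), 12 glycolysis genes (0.04) or 15 lysosomal genes (0.20) passed in either direction in the limma fit. Among 38 ribosomal protein genes, Rpl14 fell by 0.69 on the log2 scale and none rose (median -0.12). Of 21 matrix and mesenchymal genes, Col6a1 rose 1.57-fold and Pdgfra 2.25-fold by one probe, while its other probe had a log2 fold change of 0.04. Apoe, listed as an astrocyte marker, rose 1.91-fold, while the astrocyte markers Gfap and Aqp4 were undetected on all 4 arrays.

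Several raised genes outside the lists were picked after their values were seen. Hap1, which encodes huntingtin-associated protein 1, was at 9.76 and 10.13 with empty vector, against 7.38 and 7.75 untransfected (log2 fold change 2.39, SE 0.17, adjusted p = 3.61e-05). Cd274, the immune checkpoint ligand PD-L1, had 7.43 and 8.00 with empty vector and was undetected at 5.16 and 4.81 without, at least 3.34-fold higher. The imprinted gene Mest rose by 2.07 on the log2 scale, the secreted protein gene C1qtnf3 by 2.31, the EGF receptor inhibitor Errfi1 by 1.63, Mitd1 by 1.59 and the protease Adamts4 by 1.43.

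The lowered genes were led by 3 prolactin family genes. Prl2c2 (proliferin) was undetected with empty vector at 5.06 and 4.93, against 7.57 and 7.24 untransfected, and was at least 3.12-fold lower (adjusted p = 2.51e-05). Prl2c3 had 6.86 and 6.01 with empty vector and 8.81 and 8.79 without (log2 fold change -2.36, SE 0.25). Prl2c4 had 6.36 and 5.54 with empty vector and 8.09 and 7.84 without (-2.02, SE 0.27). These paralogs are near-identical, and their probes may report 1 transcript pool. Wnt2, a secreted ligand of the Wnt pathway, was at 5.24 and 5.05 with empty vector, undetected on both, against 7.09 and 7.09 untransfected, at least 2.51-fold lower (adjusted p = 0.000241).

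Id proteins, targets of BMP signals that hold bHLH factors inactive, fell together in the contractile and TGF-beta list, where 5 of 14 tested genes fell and 1 rose (median -0.26). Id2 had 8.55 and 7.96 with empty vector, against 9.72 and 9.66 untransfected (log2 fold change -1.44, SE 0.20, adjusted p = 0.00346). Id3 had 11.01 and 10.38 with empty vector and 11.95 and 12.04 without (-1.30, SE 0.20). Id1 fell by 1.58 on its brighter probe, at 6.17 and 5.62 with empty vector and 7.25 and 7.69 without, but its other probe had a log2 fold change of 0.02. Averaged over both probes, Id1 did not pass (adjusted p = 0.0912). Id4 fell by 0.78 in the limma fit but was undetected on all 4 arrays. The smooth muscle genes Acta2 and Tagln fell by 0.58 and 1.13, whereas the YAP and TGF-beta responsive gene Ankrd1 rose by 0.75.

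**Figure D4:**
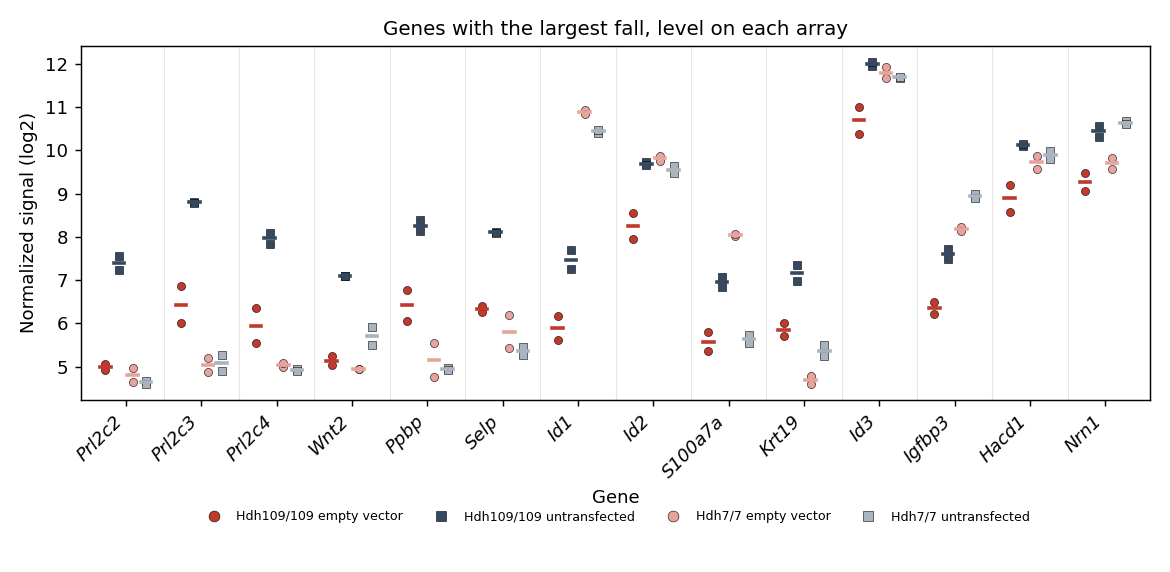
Normalized log2 signal (y axis) of the 14 genes with the largest fall in Hdh109/109 cells (x axis), 2 arrays per group with the mean as a bar, for both lines. In Hdh109/109 cells every empty vector array lies below both untransfected arrays, which the choice of these genes required (23.1% of all genes tested meet it); Wnt2 stands at 5.24 and 5.05 with empty vector and at 7.09 and 7.09 without.

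The remaining lowered genes among the 14 were the platelet chemokine Ppbp (-1.83), the adhesion molecule Selp (-1.77), S100a7a (at least 2.31-fold lower), the keratin Krt19 (-1.31), the IGF-binding protein Igfbp3 (-1.24), Hacd1 (-1.23) and the neurite growth factor Nrn1 (-1.18). Calls for Ppbp, Krt19, Id3, Hacd1 and Nrn1 were each lost in at least 1 of the 4 fits that left out an array. Meis2, a homeobox factor of striatal neurons, fell by 0.80 on its brighter probe (adjusted p = 0.00525), with -0.21 on another. Also lower, and picked after their values were seen, were the water channel Aqp1 (-1.04), the growth factor Fgf10 (-0.96) and its receptor Fgfr2 (-0.86), the Hedgehog receptor Ptch1 (-1.01), the RANKL decoy receptor Tnfrsf11b (-1.02) and the mesenchymal factor Prrx1 (-0.96).

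The same comparison in Hdh7/7 cells gave another pattern. There 563 genes were higher (6.63%) and 959 lower (11.3%), and none of the 34 effectors tested rose while 5 fell, with a median log2 fold change of -0.21. Rsad2 stayed undetected in Hdh7/7 cells, at 4.82 and 4.98 with empty vector, against 4.54 and 4.65 untransfected. Ccl5 was at 6.15 and 5.39 with empty vector, detected on 1 of the 2 arrays, and undetected at 4.67 and 5.03 without. Its fitted log2 fold change was 0.91 (adjusted p = 0.025, limma), but its mean with empty vector did not exceed the detection floor, so no bound is given. Empty vector replicate 2 of this line had a high background, with a median signal of 161 against 76.8 on replicate 1.

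The difference between the lines in the response was tested as an interaction. It was positive, that is, the change was more upward in Hdh109/109 cells, for 760 genes (8.95%) and negative for 429 (5.05%). Of the 66 raised interferon and immune genes, 63 differed in the positive direction and none in the negative one. The 66, and the other raised and lowered genes below, were chosen by their change in Hdh109/109 cells. That change is part of the difference, so the choice largely fixed its sign. In Hdh7/7 cells alone the 66 had a median log2 fold change of -0.25, against -0.05 over all genes tested. Only 40 of the 66 were detected on any Hdh7/7 array, so this median includes genes at background in that line. The difference was 6.13 on the log2 scale for Rsad2 (SE 0.35, adjusted p = 5.24e-05), 5.52 for Ifit3 (SE 0.43) and 4.73 for Cxcl10 (SE 0.42). All 6 GTPases, 29 of 34 effectors, 13 of 17 MHC class I genes and 7 of 12 chemokines differed upward. Among the other raised genes, 102 of 140 differed upward and 1 downward, and among the 79 lowered genes 39 differed downward and 1 upward. Fos moved in opposite directions, with a log2 fold change of 2.10 in Hdh109/109 cells and -2.35 in Hdh7/7 cells (difference 4.45, adjusted p = 5.35e-05). S100a7a did the reverse, falling in Hdh109/109 cells and rising at least 4.55-fold in Hdh7/7 cells (fitted difference -3.80, adjusted p = 5.24e-05). Leaving out 1 array at a time gave 671 to 3453 probes with a difference between the lines, against 1834 with all arrays; the extremes came without Hdh7/7 untransfected replicate 1 and without Hdh7/7 empty vector replicate 1.

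**Figure D5:**
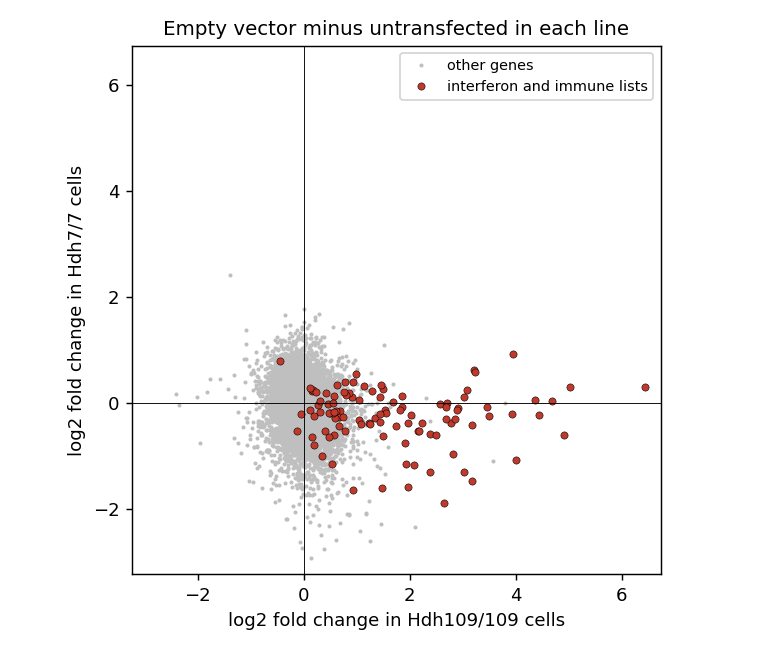
log2 fold change (empty vector minus untransfected) of each gene tested in Hdh109/109 cells (x axis) and in Hdh7/7 cells (y axis), with members of the 7 interferon and immune lists in red. The red points extend to 6.43 on the x axis for Rsad2, which is at 0.30 on the y axis.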

How the data were processed

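RNA was measured on bead arrays. Per the file headers, the deposited table holds the bead signal of each probe as a linear intensity, not yet normalized, with a detection p-value per probe and array. The deposited series matrix holds log2 values whose rows did not match their probe identifiers, so it gave counts over unnamed rows only; limma is named without version in the submitters' processing notes. The scanner software, chip positions and scan dates are not given in the sources used here.

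Signals were background-corrected and quantile normalized with neqc (limma 3.58.1, R 4.3.3, offset 16). Testing was limited to probes whose detection p was below 0.01 on 2 or more of the 12 arrays. The limma fit took in all 12 arrays, grouped by line and state (6 residual degrees of freedom), with moderated variances, two-sided tests and Benjamini-Hochberg adjustment over all 15224 probes. Adjusted p-values and SEs come from this fit. Each gene is represented by its probe of highest mean level. The number of arrays, 2 per group, limits the precision.

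For probes undetected on both arrays of one state, text values read "at least" N-fold. Such a bound compares the detected state's mean with a floor, which on each undetected array is its lowest detected signal or the probe's own signal, whichever is larger, averaged over the arrays. The 32 gene lists (664 entries) and the comparison were chosen with earlier results of these data known. Named genes were the 14 highest and 14 lowest called genes without overlap, up to 6 members of each list plus members whose role orders the account, up to 8 genes in each direction of the line difference, Htt and Rest; other genes were named after their values were seen. Alternatives covered normalization, background, filters, arrays used, weights, replicate numbers and probe choice.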

Additional observations from a re-analysis of the deposited data

Results flagged for a closer look

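Responses to empty vector that differed between the lines were singled out by the interaction test, in which a positive value means a more upward change in Hdh109/109 than in Hdh7/7 cells. It was positive for 760 genes and negative for 429. Genes named below as highest or lowest in Hdh109/109 cells were chosen by that change. Since it is part of the difference, the choice largely fixed the sign. Among the genes highest in Hdh109/109 cells the log2 difference was 6.13 for Rsad2, 4.73 for Cxcl10, 5.52 for Ifit3, 4.66 for Mx2, 4.68 for Irgm2, 4.31 for Gbp3 and 5.08 for Igtp. It was 3.03 for Ccl5, 4.15 for Cmpk2, 3.80 for Gbp2b, 4.68 for Uba7, 3.75 for Gbp7, 3.54 for Parp14 and 2.65 for Apol9b. Lgals3bp, a secreted glycoprotein, had 4.65, with a log2 fold change of 3.17 in Hdh109/109 cells and -1.48 in Hdh7/7 cells. Several of these genes were undetected in untransfected Hdh109/109 cells, so the fitted differences are not bounds.

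Among genes lowest in Hdh109/109 cells the difference was -2.58 for Prl2c2, -2.32 for Prl2c3, -2.13 for Prl2c4, -1.19 for Wnt2, -2.04 for Ppbp, -2.22 for Selp and -2.03 for Id1. It was -1.70 for Id2, -3.80 for S100a7a, -1.41 for Id3 and -1.05 for Hacd1. Tnnt2, the cardiac troponin T gene, had -2.20, with 9.85 and 9.35 in Hdh7/7 cells with empty vector, 8.36 and 8.62 in untransfected Hdh7/7 cells, and a fall of at least 1.55-fold in Hdh109/109 cells.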

How the results depend on the processing

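The 14 genes with the highest change stayed past the threshold under all 17 alternatives in which they were tested (228 values). Of these 14, only Cxcl10, Gbp3, Ccl5 and Uba7 were tested under detection on all 4 arrays. The others were not detected on both untransfected arrays and could not be checked that way. Of the 14 lowest, 6 lost their call under at least 1 alternative (14 of 233 values), and no gene reversed. Raised members of the 7 interferon and immune lists, 66 of 105 tested, numbered 50 to 74 under every other alternative run for them except detection on all 4 arrays, which left 68 to test and 43 raised. Of 474 recomputed medians of 28 lists, 17 had the opposite sign to a main median other than 0, in the ATF4, REST target, glycolysis, heat shock, neural progenitor and striatal neuron lists. The astrocyte marker median, 0.00, ranged from -0.06 to 0.08. The counts of probes were less stable. Against 298 higher and 146 lower probes, there were 178 and 52 with array weights, 176 and 45 at 2-fold or more, 184 and 41 from the 4 arrays alone, 194 and 58 from the 6 Hdh109/109 arrays, and 132 and 58 from the series matrix. Lower probes numbered 227 with detection on all 4 arrays, 93 at a detection p under 0.05, 30 with median scaling, 354 without background correction and 288 at an offset of 50. Without each array in turn, higher probes ranged from 147 to 468 and lower ones from 22 to 622. The line difference, 1834 probes, came to 1039 with array weights, 1136 at 2-fold or more, 1027 from the series matrix and 671 to 3453 without each array. The cause of these shifts was not tested.

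The replicate numbers are not shown to pair the arrays (deviations of the 2 states correlated at -0.106). The replicate block gave 194 higher and 68 lower probes and 1150 for the line difference, and a crossed replicate block, chosen after seeing the data, gave 242 and 89. With 2 arrays per group and 1 of them of high background, dim probes are the least certain, and fits that leave out 1 array assume that the lone array varies like the other groups.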
